A study of Mus musculus with 34 samples.

Results

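The pyruvate dehydrogenase genes described here were 10 named genes out of 23509 genes counted in the kidney of each of 34 mice. These 10 genes were taken by name and not by a threshold on a measured value, but with earlier results of these data known. They comprised the 4 pyruvate dehydrogenase kinases (*Pdk1*, *Pdk2*, *Pdk3* and *Pdk4*), both catalytic pyruvate dehydrogenase phosphatase subunits (*Pdp1* and *Pdp2*) and 4 subunits of the complex itself (*Pdha1*, *Pdhb*, *Dlat* and *Pdhx*). All 10 genes were found and passed the filter on low counts, and the lowest count of any of them in any library was 211. *Pdk2* holds a particular place in this series, because the sample labels spell the genotype of the cystic mice "Pdk2KO" where the design text names *Pkd2*, the polycystin-2 gene.

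Kidney polyadenylated RNA was sequenced at postnatal day 28 (P28) in C57BL6 mice of 3 groups. *Pkd2*-KO mice received RGLS4326 (n = 11), an oligonucleotide inhibitor of the microRNA miR-17, at 20 mg per kg body weight by subcutaneous injection on P10, P11, P12 and P19, or PBS by the same route and on the same days (n = 11). Non-transgenic mice of the same strain that received no treatment (UNT, n = 12) served as the normal comparison. The *Pkd2*-KO mice carry floxed *Pkd2* alleles and a Cre recombinase driven by *Pkhd1*, a gene of kidney tubules, so other kidney cells keep *Pkd2*. The authors describe the model as aggressive. Both *Pkd2*-KO groups share the deletion, and no treated group without it was analysed here. The comparison of PBS with UNT mice is called the disease contrast below, and that of RGLS4326 with PBS mice the treatment contrast. Both contrasts share the PBS mice, which enter them with opposite sign, so values of opposite direction in both are not independent of each other.

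The pyruvate dehydrogenase complex sits in the mitochondrial matrix and converts pyruvate, the end product of glycolysis, into acetyl-CoA for the tricarboxylic acid cycle. Its E1 enzyme is built from an alpha subunit (*Pdha1*) and a beta subunit (*Pdhb*), its E2 core carries the acetyl group on lipoate arms (*Dlat*), and the E3-binding protein (*Pdhx*) holds the E3 enzyme in place. Kinases switch the complex off by phosphorylating E1 alpha, and phosphatases switch it on again. Transcript levels do not report this phosphorylation. The proximal tubule, which makes up much of the kidney cortex, is rich in mitochondria and relies largely on oxidative metabolism.

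Since RGLS4326 acts on miR-17, matches to its seed were looked for in the 3′UTR of each gene (the longest one annotated). The mature miRNA is shown first, with the seed (bases 2 to 8) in capitals, as listed by RefSeq for GRCm38.p6 on chromosome 14 at 115043684 to 115043706 of the plus strand. The matches follow in the sense of the mRNA, with the bases that pair with the seed, and the A opposite base 1 where there is one, in capitals and 10 flanking bases on each side.
mmu-miR-17-5p: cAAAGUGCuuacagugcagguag
Pdk4: aggaatcaaaGCACTTTAtcgagcttgt
Pdk1: ctttcaattaCACTTTActgcaatgat
Pdp2: aatcttcaggGCACTTTtctatatgtg
Pdhx: gtatggagatGCACTTTtaaaataatt
Pkd2: ataattttctGCACTTTAatttatttta

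*Pdk4* held a match of all 8 bases (GCACTTTA) at chr6:5484939-5484946 of the minus strand in GRCm38, at position 503 of a 3′UTR of 2098 bases. *Pdk1* held the 7-base match CACTTTA at chr2:71901911-71901917 of the plus strand. *Pdp2* held the 7-base match GCACTTT at chr8:104595678-104595684 of the plus strand, and *Pdhx* held the same 7 bases at chr2:103040322-103040328 of the minus strand. *Pkd2*, the deleted gene, is shown for comparison and held the 8-base match at chr5:104503821-104503828 of the plus strand. The 3′UTRs of *Pdk2*, *Pdk3*, *Pdp1*, *Pdha1*, *Pdhb* and *Dlat* held neither 7-base match. One or more of these matches was present in 3010 of 14186 tested genes with a 3′UTR (21.2%), and in 28.2% of those within 20% of the 3′UTR length of *Pdk4*. A longer 3′UTR holds a match more often, as among genes of the length of *Pdk1* (46.2%) and of *Pdp2* (47.1%), whereas the short 3′UTR of *Pdhb* is of a length at which 3.50% of genes held one. A match is a string of letters and not evidence that miR-17 binds there.

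The libraries held from 17603122 to 54981992 reads in genes, and levels are expressed in CPM, that is counts scaled to a common library size with TMM factors. Several features of the libraries bear on the values below. The mouse PBS 9 correlated least with its own group (median r = 0.972 across genes), and PBS 2 and PBS 11 had high levels of adrenal cortex markers. The summed level of *Star*, *Cyp11b1* and *Cyp11a1* was 478 CPM in PBS 2 and 791 CPM in PBS 11, against at most 4.04 CPM in UNT mice and 25.5 CPM in RGLS4326 mice. The numbering of the libraries restarted in a way that split them into 3 sets, each with 3 or 4 mice of every group, so differences are also given within sets. The share of reads that fell in no gene also differed between groups, at 9.84% to 11.3% in UNT libraries, 5.18% to 8.995% in PBS libraries and 4.94% to 12.0% in RGLS4326 libraries. Reads without a unique alignment made up 22.8% to 25.7% in UNT, 14.8% to 19.4% in PBS and 14.8% to 19.1% in RGLS4326 libraries. The UNT and PBS ranges did not overlap in either measure, and the part of these measures in the results was examined only with the first as a covariate. The markers of the kidney were all present, and their summed levels differed between groups. All 8 proximal tubule markers fell in the disease contrast, from 10295 to 14073 CPM in sum in UNT mice to 1178 to 3402 CPM in PBS mice, and stood at 2174 to 3723 CPM in RGLS4326 mice, with 5 of 8 higher in the treatment contrast. The 4 fibroblast markers rose, from 340 to 982 CPM in sum in UNT mice to 2118 to 4516 CPM in PBS mice, and so did the 4 macrophage markers, from 69.5 to 125 CPM to 350.0 to 883 CPM. Of 5 collecting duct markers 3 rose and 2 fell in the disease contrast, and of 3 endothelial markers 2 rose and 1 fell. T cell markers rose in 2 of 3 cases. All 3 markers each of the thick ascending limb, distal convoluted tubule and podocytes fell in the disease contrast. With treatment, 2, 1 and 3 of these were higher, as were 2 of 3 endothelial markers, while 2 of 4 macrophage, 2 of 3 T cell, 2 of 5 collecting duct and none of the 4 fibroblast markers were lower. In whole kidneys, fewer cells of a type and less RNA per cell cannot be told apart, and the part of these shifts in the results below was not tested.

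In the disease contrast, 8 of the 10 genes fell and 1 rose at an adjusted p under 0.05 (edgeR quasi-likelihood test with Benjamini-Hochberg adjustment over all 15644 genes tested). The background was high, as 82.1% of all genes tested were called in this contrast, 39% lower and 43.1% higher. With a log2 fold change beyond 0.5 also required, 8 of the 10 were called, against 56.3% of all genes. The median log2 fold change of the 10 genes was -1.05, against 0.04 over all genes. For 7 of the 10, the lowest UNT mouse was above the highest PBS mouse, a separation that 42.5% of all genes tested showed in one direction or the other. In the treatment contrast 1 of 10 was called, against 33.8% of all genes (15.3% higher and 18.5% lower), and 0 of 10 with a log2 fold change beyond 0.5 (8.04% of all genes). The background itself depended on the setting, as the 5280 genes called in this contrast became 89 with a covariate for the share of reads in no gene, 2836 without PBS 2 and PBS 11, and 0 in set 3 alone (edgeR, 2826 genes at an unadjusted p under 0.05). None of the 10 separated treated from PBS mice, as 0.0639% of all genes did.

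**Figure D1:**
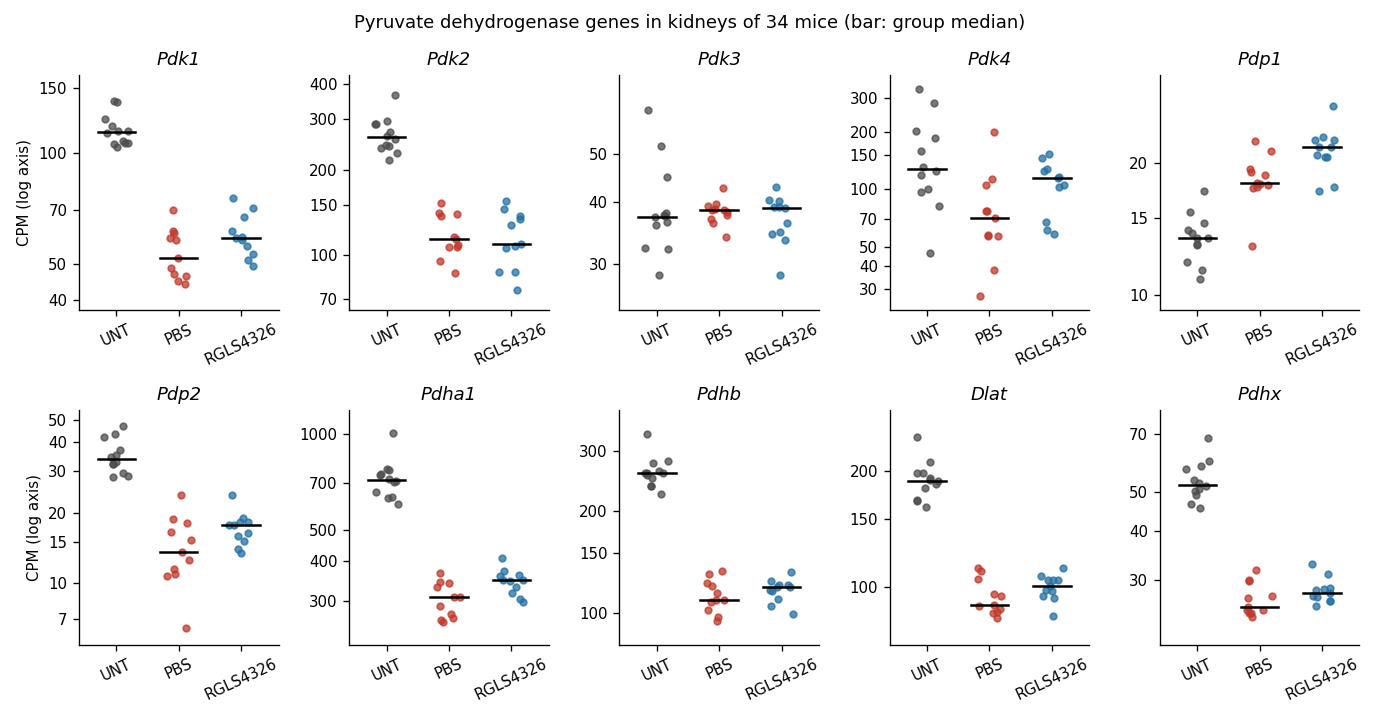
Levels of the 10 genes in each mouse, in CPM on a log axis, by group (UNT n = 12, PBS n = 11, RGLS4326 n = 11); each point is a mouse and the bar is the group median. Both *Pkd2*-KO groups sit below all UNT mice for *Pdk1*, *Pdk2*, *Pdp2*, *Pdha1*, *Pdhb*, *Dlat* and *Pdhx*, overlap them for *Pdk3* and *Pdk4*, and lie mostly above them for *Pdp1*.

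*Pdk2* encodes the kinase found in most tissues. It lies on chromosome 11 at 95026258 to 95041354 of the minus strand (GRCm38). It ranged from 217 to 365 CPM in UNT mice (median 259), from 86.8 to 152 CPM in PBS mice (median 114) and from 75.5 to 155 CPM in RGLS4326 mice (median 110). Every *Pkd2*-KO mouse was below every UNT mouse, and both *Pkd2*-KO groups covered nearly the same range. The log2 fold change was -1.17 in PBS mice against UNT mice (SE 0.11, adjusted p 5.32e-12) and -0.03 (95% confidence interval -0.26 to 0.19, adjusted p 0.824) in the treatment contrast. *Pkd2* itself ranged from 219.6 to 338 CPM in UNT mice, from 98.0 to 214.5 CPM in PBS mice and from 170.0 to 237 CPM in RGLS4326 mice. Its log2 fold change was -0.78 in the disease contrast (SE 0.09, adjusted p 1.4e-09) and 0.39 in the treatment contrast (SE 0.09, adjusted p 0.00439). The treatment call of *Pkd2* held in 13 of 17 alternatives, and over all 17 its log2 fold change ran from 0.25 to 0.56. This call was lost with a covariate for the share of reads in no gene (0.25, adjusted p 0.135, edgeR). Within each library set, of 3 or 4 mice per group, it was lost as well (0.35, 0.34 and 0.56 in sets 1, 2 and 3, adjusted p 0.0938, 0.0938 and 0.262, edgeR). Transcript levels therefore do not tell which of both names the label means, since both genes were lower in the mice so labelled and neither was absent, and the design text was followed.

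**Figure D2:**
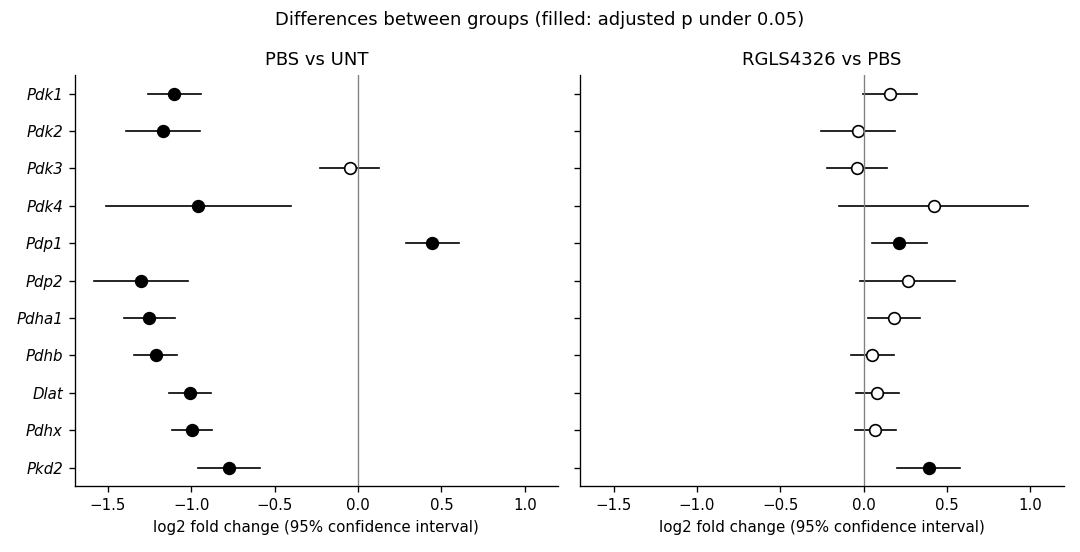
Log2 fold changes of the 10 genes and *Pkd2* with 95% confidence intervals for PBS vs UNT and RGLS4326 vs PBS; filled points passed an adjusted p under 0.05 in the edgeR test over all genes. On the left 8 of the 10 genes lie between -0.96 and -1.30, while on the right *Pdp1* alone among the 10 is filled.

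*Pdk1*, a kinase gene that responds to hypoxia-inducible factor in many cells, ranged from 103.4 to 138 CPM in UNT mice (median 114), from 44.2 to 69.9 CPM in PBS mice (median 51.9) and from 49.3 to 75.7 CPM in RGLS4326 mice (median 58.9). No *Pkd2*-KO mouse reached the UNT range. In PBS mice the gene fell, at -1.10 on the log2 scale (SE 0.08, adjusted p 2.96e-15), and its difference in the treatment contrast was 0.16 (95% confidence interval -0.002 to 0.32, adjusted p 0.112).

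*Pdk3*, an X-linked gene, was the member whose level differed least between the groups in the disease contrast. It ranged from 28.6 to 61.3 CPM in UNT mice (median 37.4), from 34.01 to 42.7 CPM in PBS mice (median 38.6) and from 28.5 to 42.9 CPM in RGLS4326 mice (median 39.0). All PBS mice lay inside the UNT range. The log2 fold change was -0.05 (95% confidence interval -0.23 to 0.13, adjusted p 0.605) in the disease contrast and -0.04 (-0.22 to 0.14, adjusted p 0.734) in the treatment contrast. Its disease value depended on the scaling, since with total counts alone it was called higher at 0.25 (adjusted p 0.00296). That scaling moved the median of all genes to 0.33.

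*Pdk4*, the kinase gene induced by fasting and fatty acids through PPAR alpha and glucocorticoids, was by far the most variable of the 10 genes. It ranged from 46.5 to 335 CPM in UNT mice (median 128), from 27.6 to 199 CPM in PBS mice (median 70.4) and from 58.2 to 153 CPM in RGLS4326 mice (median 115). The highest mouse had 7.20 times the level of the lowest in the UNT group, 7.21 times in the PBS group and 2.63 times in the RGLS4326 group. The spread within groups on the log2 scale (SD 0.69) was above that of 99.6% of 2023 genes of like level. In the disease contrast the gene fell, at -0.96 on the log2 scale (SE 0.28, adjusted p 0.0019), with 10 of 11 PBS mice below the UNT mean and all but 2 inside the UNT range. The call was lost with a covariate for the share of reads in no gene, which gave -0.65 (adjusted p 0.146), and without set 3 at -0.74 (adjusted p 0.0858). In the treatment contrast the difference was 0.42 (95% confidence interval -0.14 to 0.98, adjusted p 0.234), and 8 of 11 RGLS4326 mice were above the PBS mean. In RGLS4326 vs UNT it was -0.54 (adjusted p 0.071), and it ran from -0.92 to -0.014 over 17 alternatives, with a call in 3 of them.

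The make-up of the kinase transcripts was compared as the share of each gene in the sum of the 4 levels per kilobase of exon. This is a description of levels without a test. *Pdk2* took the largest share, with medians of 55.2% in UNT mice, 47.8% in PBS mice and 39.5% in RGLS4326 mice. Without a correction for length the median of *Pdk4* (35.6%) was above that of *Pdk2* (34.2%) in RGLS4326 mice. Per kilobase, *Pdk2* was the highest of the 4 in 11 of 12 UNT mice, 10 of 11 PBS mice and 7 of 11 RGLS4326 mice, and in every other mouse *Pdk4* was the highest. The share of *Pdk4* had medians of 24.8% in UNT mice (range 11.9% to 43.6%), 23.7% in PBS mice (range 14.2% to 49.0%) and 35.8% in RGLS4326 mice (range 20.7% to 42.6%). The ranges overlapped throughout. *Pdk3*, which did not fall with the others, took 9.98% in UNT mice, 18.3% in PBS mice and 16.0% in RGLS4326 mice (medians). The median share of *Pdk1* was 9.70%, 8.59% and 8.44% in UNT, PBS and RGLS4326 mice.

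**Figure D3:**
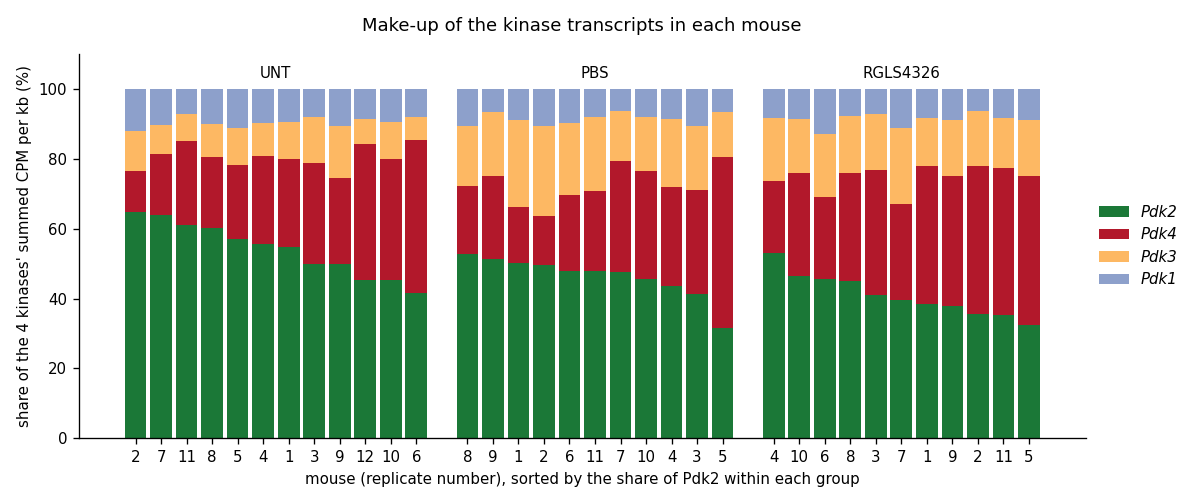
Share of each kinase gene in the summed CPM per kilobase of exon of the 4 kinases, in percent, 1 bar per mouse, sorted by the share of *Pdk2* within each group. *Pdk2* fills a median of 55.2% of the bar in UNT mice and 39.5% in RGLS4326 mice, and the band of *Pdk3* is wider in PBS mice (median 18.3%) than in UNT mice (9.98%).

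The phosphatase genes moved apart in cystic kidneys. *Pdp2* ranged from 28.4 to 46.8 CPM in UNT mice (median 33.8), from 6.39 to 23.8 CPM in PBS mice (median 13.6) and from 13.4 to 23.8 CPM in RGLS4326 mice (median 17.7). All *Pkd2*-KO mice lay below the UNT range, and PBS 9 was the lowest of all. *Pdp2* fell in the disease contrast, at -1.30 on the log2 scale (SE 0.14, adjusted p 1.22e-10), and differed by 0.26 in the treatment contrast (95% confidence interval -0.02 to 0.55, adjusted p 0.135).

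*Pdp1*, the calcium-sensitive phosphatase known from muscle, went the other way. It ranged from 10.9 to 17.3 CPM in UNT mice (median 13.5), from 12.97 to 22.4 CPM in PBS mice (median 17.97) and from 17.3 to 26.9 CPM in RGLS4326 mice (median 21.8). In the PBS group 10 of 11 mice were above every UNT mouse, and the exception was PBS 9, the lowest PBS mouse. The log2 fold change was 0.44 (SE 0.08, adjusted p 4.18e-06) for disease and 0.21 (SE 0.08, adjusted p 0.0391) for treatment, and 0.66 (SE 0.08, adjusted p 2.43e-09) in RGLS4326 vs UNT. It was thus the 1 member called in the treatment contrast, with 9 of 11 RGLS4326 mice above the PBS mean and 4 above all PBS mice, and treated mice lay farther from UNT mice than PBS mice did. This call was close to the threshold and held in 8 of 17 alternatives. It was lost, among others, without PBS 9 (0.19, adjusted p 0.062), without PBS 2 and PBS 11 (0.21, adjusted p 0.078) and with a covariate for the share of reads outside genes (0.15, adjusted p 0.322).

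The level of *Pdp1* per kilobase was below that of *Pdp2* in all 12 UNT mice, with a ratio of 0.373 to 0.631 (median 0.496). The ratio exceeded 1 in 10 of 11 PBS mice (median 1.86, range 0.998 to 2.56) and in 11 of 11 RGLS4326 mice (median 1.56, range 1.15 to 2.44). The order of both phosphatase transcripts per kilobase thus differed between UNT mice and nearly all *Pkd2*-KO mice. Without a correction for length, *Pdp1* was above *Pdp2* in 0 of 12 UNT mice, 9 of 11 PBS mice and 8 of 11 RGLS4326 mice. The summed level of both phosphatases per kilobase had medians of 8.98, 6.61 and 7.71 CPM per kilobase in the UNT, PBS and RGLS4326 groups. The summed level of the 4 kinases had medians of 145, 77.6 and 92.6 CPM per kilobase in the same order. The ratio of the kinase sum to the phosphatase sum ranged from 12.3 to 23.8 in UNT mice (median 17.4), from 8.63 to 21.2 in PBS mice (median 12.3) and from 7.82 to 14.3 in RGLS4326 mice (median 12.3). The ratio of the kinase sum to *Pdha1* had medians of 0.789, 1.03 and 0.999. The ranges of the last 2 ratios overlapped between all groups, and none of these ratios was tested.

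The 4 genes of the complex itself fell in the disease contrast, and each was lower in every *Pkd2*-KO mouse than in any UNT mouse. *Pdha1*, the phosphorylated E1 alpha subunit, had the highest level per kilobase of the 10 genes in each group (medians of 192, 82.6 and 93.7 CPM per kilobase). It ranged from 602 to 1008 CPM in UNT mice (median 717), from 258 to 366 CPM in PBS mice (median 308) and from 298 to 409 CPM in RGLS4326 mice (median 350). The log2 fold change was -1.25 between PBS and UNT mice (SE 0.08, adjusted p 4.26e-17). Between treated and PBS mice it was 0.18 (95% confidence interval 0.03 to 0.34), with 10 of 11 RGLS4326 mice above the PBS mean, but did not pass the adjusted threshold (p 0.0222, adjusted p 0.0606, edgeR). Of the 3734 exon bases of *Pdha1* on the X chromosome, 603 overlap exons of *Map3k15* on the opposite strand, and whether the counting used strand is not given in the sources used here. *Map3k15* was at 48.4 to 72.2 CPM in UNT mice, 6.99 to 19.7 CPM in PBS mice and 13.8 to 20.6 CPM in RGLS4326 mice. No other member shares exon bases with another gene in this annotation.

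*Pdhb*, the E1 beta subunit, ranged from 225 to 337 CPM in UNT mice (median 259), from 94.9 to 133 CPM in PBS mice (median 109) and from 99.5 to 133 CPM in RGLS4326 mice (median 119). The log2 fold change was -1.21 between PBS and UNT mice (SE 0.06, adjusted p 5.3e-19), the smallest p among the 10 genes. For treatment it was 0.05 (95% confidence interval -0.08 to 0.18, adjusted p 0.542).

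*Dlat*, the E2 core, ranged from 162 to 245 CPM in UNT mice (median 189), from 83.4 to 112 CPM in PBS mice (median 90.1) and from 84.0 to 112 CPM in RGLS4326 mice (median 100.6). *Pdhx*, the E3-binding protein, ranged from 45.6 to 68.4 CPM in UNT mice (median 52.3), from 24.3 to 31.8 CPM in PBS mice (median 25.8) and from 25.9 to 32.9 CPM in RGLS4326 mice (median 27.8). Both ranges of *Pkd2*-KO mice ended well below the lowest UNT mouse. In the disease contrast the log2 fold changes were -1.01 for *Dlat* (SE 0.06, adjusted p 8.31e-17) and -0.99 for *Pdhx* (SE 0.06, adjusted p 3.8e-17). The treatment values were 0.08 for *Dlat* (95% confidence interval -0.05 to 0.21) and 0.07 for *Pdhx* (-0.05 to 0.19), with adjusted p of 0.319 and 0.373 (edgeR).

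The levels of the E2 core and the E3-binding protein followed each other closely from mouse to mouse. The ratio of *Dlat* to *Pdhx* per kilobase was 2.59 to 3.02 in UNT mice, 2.70 to 2.999 in PBS mice and 2.54 to 3.24 in RGLS4326 mice, with medians of 2.88, 2.83 and 2.90. The SD of the log2 ratio of both genes over the 34 mice was 0.071, the lowest of the 45 pairs among the 10 genes. Ranks by this measure were taken among 15200 tested genes with a level above 0 in every mouse. Over all 34 mice the nearest to *Dlat* was *Pdhx* and the nearest to *Pdhx* was *Dlat*, where the median SD over all genes was 0.60. With UNT mice left out, *Pdhx* was at rank 11 for *Dlat* and *Dlat* at rank 1 for *Pdhx*, against medians of 0.291 and 0.285. These ranks were 7 and 16 in UNT mice alone, 2 and 1 in PBS mice alone, and 669 and 178 in RGLS4326 mice alone. Counting reads alone would give an SD of 0.051 for this pair, so the measure was near its floor. Within groups the SD was 0.068 in UNT, 0.039 in PBS and 0.099 in RGLS4326 mice, where counting alone would give 0.039, 0.053 and 0.059, and no difference in closeness between groups is read from these values. The pair *Pdha1* and *Pdhb*, which form the E1 tetramer, had an SD of 0.129 over the 34 mice (0.025 from counting alone). *Pdhb* stood at rank 23 for *Pdha1*, behind *Dlat* at rank 17. That rank of *Pdhb* was 158 with UNT mice left out, and 962, 222 and 312 in UNT, PBS and RGLS4326 mice alone. All 6 pairs among the 4 complex genes ranked ahead of every pair that held a kinase or phosphatase gene. At the other end, pairs with *Pdp1* had SDs of up to 0.92 (*Pdk2* with *Pdp1*). These values describe the mice, which share depth and tissue make-up, and were not tested.

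Some mice were extreme in several of these genes at once. UNT 10 was the highest UNT mouse in all 4 complex genes, with 1008 CPM of *Pdha1* where the next UNT mouse had 778 CPM. RGLS4326 1 was the highest mouse of its group in all 4 as well, with 409 CPM of *Pdha1* against 372 CPM in the next. RGLS4326 7 was the lowest of its group in *Pdha1*, *Pdhb* and *Dlat*, and also in *Pdk2* and *Pdk4*. In the PBS group no mouse was highest or lowest in all 4 complex genes. PBS 9, which stood apart across all genes, was in the middle for these 4 (rank 5 to 8 of 11 from the lowest) but the lowest PBS mouse in *Pdk1*, *Pdp1*, *Pdp2* and *Pkd2*. PBS 2, one of both mice with high adrenal markers, was the lowest in *Pdk2* and *Pdk4*. Without PBS 9, and without PBS 2 and PBS 11, every disease call among the 10 genes held.

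The difference between treated and PBS mice was also computed within each library set. For *Pdk2* it was 0.45 in set 1, -0.44 in set 2 and -0.14 in set 3, so the sets had opposite signs. For *Pdk4* it was 1.37 in set 1, -0.44 in set 2 and 0.60 in set 3. A test of whether the treatment difference varied between sets, added after these values had been seen, gave p = 0.00317 for *Pdk2* and p = 0.0397 for *Pdk4* (edgeR), which after adjustment over all genes were 0.6 and 0.67. No gene of the 15644 passed that adjusted threshold, while 7.2% had an unadjusted p under 0.05. The disease differences kept their sign in each set for 9 of the 10 genes, and the exception was *Pdk3* (-0.15, 0.19 and -0.17). For *Pdk4* the disease differences were -1.36, -0.46 and -1.39 in sets 1, 2 and 3. Those of *Pdp1* were 0.67, 0.50 and 0.19.

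**Figure D4:**
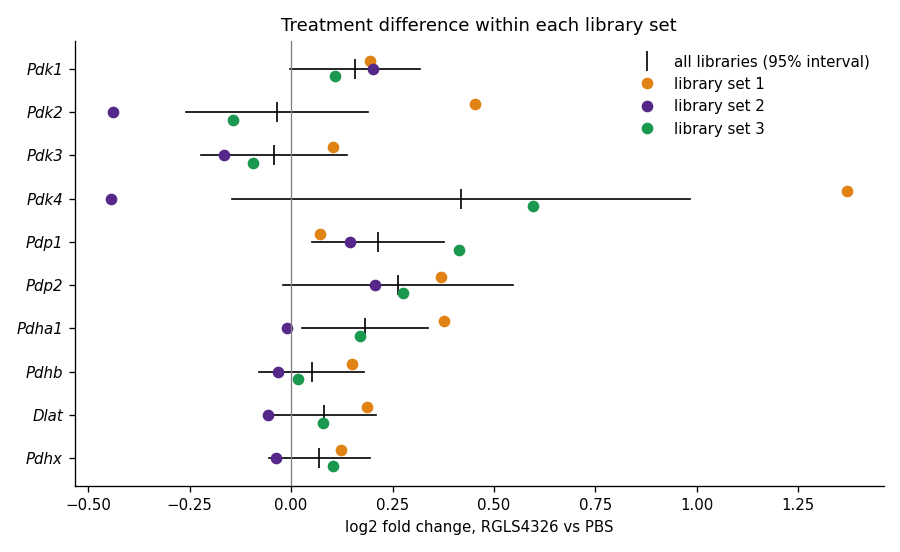
Log2 fold change of RGLS4326 vs PBS for the 10 genes within each of the 3 library sets (colored points, from 1 fit of group by set) beside the value over all libraries with its 95% confidence interval (black). The sets lie on both sides of 0 for *Pdk2* (from -0.44 to 0.45) and *Pdk4* (from -0.44 to 1.37), and close together for *Pdk1* (from 0.11 to 0.20).

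In relation to the seed matches shown above, the 4 members with a match (*Pdk4*, *Pdk1*, *Pdp2* and *Pdhx*) had a median treatment log2 fold change of 0.21, and the 6 without a match had 0.07. Over all tested genes the medians were 0.09 for the 3010 with a match and -0.03 for the 11176 without one. Of the members, 0 of 4 with a match and 1 of 6 without one were called, where 35.9% of all genes with a match and 33.7% of those without one were, and nothing about the seed is read from such small counts.

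Of 8 other genes of the complex and its cofactors, 6 fell and none rose in the disease contrast, with a median log2 fold change of -0.63, and 2 rose and none fell on treatment (median 0.08). *Dld*, the E3 enzyme shared with the sister complexes, fell by 1.59 on the log2 scale (SE 0.09, adjusted p 1.05e-17) and rose by 0.34 in the treatment contrast (SE 0.09, adjusted p 0.00711). *Lias*, which makes the lipoate of *Dlat*, fell by 0.72 in the disease contrast (adjusted p 9.71e-13), and its treatment difference was 0.02 (adjusted p 0.83). *Pdpr*, the regulatory subunit of the phosphatase, was not called in either contrast (-0.39, adjusted p 0.064, and 0.43, adjusted p 0.0853). *Dld* was thus called in both contrasts in opposite directions, unlike any of the 10 genes.

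Among 13 genes that supply pyruvate or turn it to other products, 9 fell and 2 rose in the disease contrast (median -0.78), and 1 rose and 2 fell in the treatment contrast (median 0.02). *Mpc1* and *Mpc2*, whose products form the carrier that brings pyruvate into mitochondria, had log2 fold changes of -1.90 (SE 0.10, adjusted p 4.49e-19) and -1.47 (SE 0.09, adjusted p 1.07e-16), where the complex genes had -0.99 to -1.25. *Pcx*, which turns pyruvate into oxaloacetate, fell by 2.25 (adjusted p 1.5e-15), and *Pck1*, the next enzyme on the way to glucose, by 3.21 (adjusted p 5.54e-11). The genes that rose were *Slc16a3*, which exports lactate, at 2.52 on the log2 scale (SE 0.20, adjusted p 3.49e-14), and *Pkm*, a pyruvate kinase, at 0.46 (adjusted p 3.99e-05). Both fell in the treatment contrast, *Slc16a3* by 0.49 (adjusted p 0.0418) and *Pkm* by 0.44 (adjusted p 0.003). *Ldha*, which makes lactate from pyruvate, was at 0.05 in the disease contrast (adjusted p 0.565) and at -0.20 in the treatment contrast (adjusted p 0.0504).

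The sister complexes for 2-oxoglutarate, 2-oxoadipate and branched-chain keto acids are built on the same plan. All 8 genes listed for them, with a kinase and a phosphatase, fell in the disease contrast, with a median of -1.28, and 3 rose and 1 fell with treatment (median 0.17). *Bckdhb*, E1 beta of the branched-chain complex, fell by 1.91 on the log2 scale (adjusted p 4.1e-21). The kinase of that complex, *Bckdk*, fell by 0.32 (adjusted p 3.28e-05) and its phosphatase, *Ppm1k*, by 1.31 (adjusted p 2.45e-13). In the treatment contrast *Ppm1k* rose by 0.33 (adjusted p 0.0236) and *Bckdk* fell by 0.23 (adjusted p 0.011). All 8 genes chosen as a measure of mitochondrial content also fell in the disease contrast, with a median of -0.84 and values from -0.37 (*Tomm20*, an import receptor of the outer membrane) to -1.37 (*Hspd1*, a matrix chaperone), and none was called in the treatment contrast. The 4 complex genes, at -0.99 to -1.25, lay within that range.

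**Figure D5:**
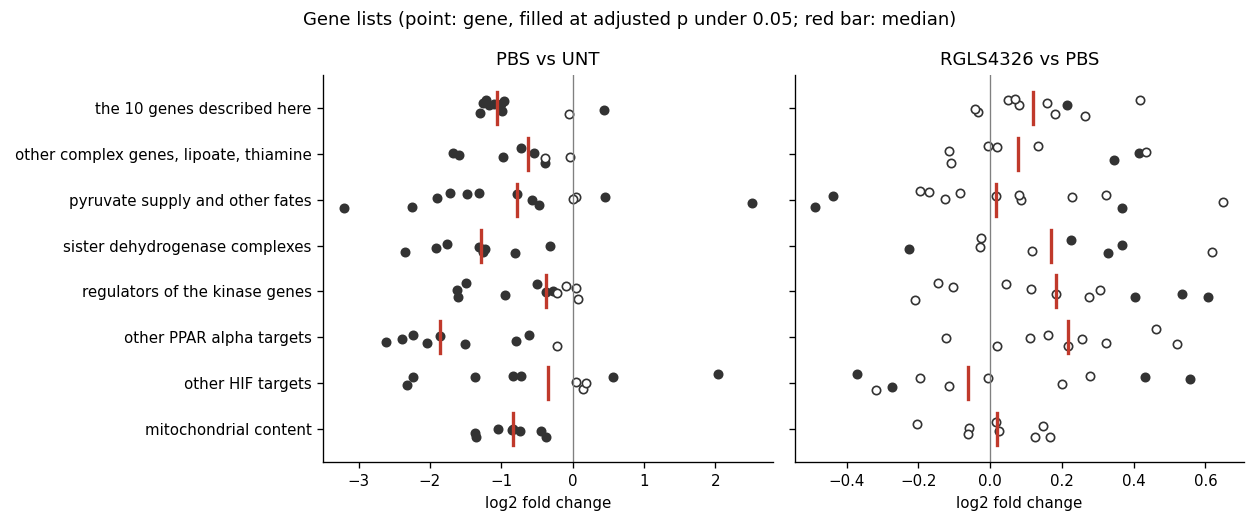
Log2 fold changes of the 10 genes and of 7 related gene lists for PBS vs UNT and RGLS4326 vs PBS; each point is a gene, filled when its adjusted p was under 0.05, and the red bar is the list's median. The medians are below 0 for all lists in the disease contrast, from -0.34 for HIF targets to -1.85 for PPAR alpha targets, and the axes of both panels differ in range.

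Of 11 regulators of the kinase genes, 7 fell and none rose in the disease contrast (median -0.37), and 3 rose and none fell in the treatment contrast (median 0.18). *Ppara*, the fatty acid receptor that induces *Pdk4*, fell by 1.62 on the log2 scale (SE 0.17, adjusted p 3.66e-11), and *Ppargc1a*, its coactivator, by 1.61 (SE 0.14, adjusted p 5.5e-13). *Nr3c1*, the glucocorticoid receptor, fell by 0.50 (adjusted p 5.95e-06). In the treatment contrast, which shares the PBS mice, the same 3 rose, by 0.61 (adjusted p 0.00806), 0.53 (adjusted p 0.00639) and 0.41 (adjusted p 0.00338). Of the 9 other PPAR alpha targets tested, 8 fell in the disease contrast (median -1.85), among them *Cyp4a14*, a fatty acid hydroxylase, by 2.61 (adjusted p 4.9e-08), and none was called in the treatment contrast. In the disease contrast 6 of these 9 had a lower value than *Pdk4*. Of 10 HIF targets, 5 fell and 2 rose in the disease contrast, and 2 rose and 2 fell with treatment. *Egln3*, an oxygen sensor, rose by 2.04 (adjusted p 2.63e-17) and *Slc2a1*, the glucose transporter GLUT1, by 0.56 (adjusted p 1.71e-07), whereas *Vegfa*, an angiogenic factor, fell by 2.23 (adjusted p 6.59e-16).

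The genes most like *Pdk2* over the 34 mice, by the lowest SD of the log2 ratio of their CPM to that of *Pdk2*, were *Gabarapl1* (0.128), *Idh3g* (0.169), *Coasy* (0.171), *Idh2* (0.175) and *Acsf3* (0.177), where the median over all genes was 0.73. *Gabarapl1* encodes a protein of the autophagosome membrane, *Idh3g* and *Idh2* encode mitochondrial isocitrate dehydrogenases, and *Coasy* encodes coenzyme A synthase. With UNT mice left out, *Gabarapl1* was again the nearest (0.11), and the other 4 were replaced. By this measure *Pdk4* had no such close companion. The measure depends on the spread of *Pdk4* itself (within-group SD 0.69), so it does not tell whether other genes moved with *Pdk4* in smaller steps. The nearest genes to *Pdk4* were *Map3k5* (0.51), *Klf9* (0.51), *Ndrg1* (0.53), *Frmd4b* (0.54) and *Acot1* (0.54), against a median of 0.87. With UNT mice left out none of these 5 was kept.

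Between treated and UNT mice, 7 of the 10 genes were lower and *Pdp1* was higher, while 77.7% of all genes tested were called (40.8% higher and 36.9% lower). The same 8 were called with a log2 fold change beyond 0.5, against 51% of all genes. *Pdk1*, *Pdk2*, *Pdp2*, *Pdha1*, *Pdhb*, *Dlat* and *Pdhx* did not overlap between these groups, against a background of 36.7%. Their log2 fold changes were from -0.93 (*Pdhx*) to -1.20 (*Pdk2*). This comparison shares its UNT mice with the disease contrast and its RGLS4326 mice with the treatment contrast.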

How the data were processed

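The deposited files gave unnormalized counts of reads for each gene symbol and mouse. The authors made stranded libraries of polyadenylated RNA, sequenced paired ends of 75 bases, trimmed them (TrimGalore), aligned them to GRCm38 (mm10) with STAR and counted unique reads with HTSeq 0.6.1 (submitters' processing notes); the annotation and the strand setting are not given in the sources used here. Counts were scaled by TMM, filtered with filterByExpr (15644 genes left) and tested in 1 fit of all 34 libraries and 3 groups without covariates by the two-sided quasi-likelihood test of edgeR 4.0.16 (R 4.3.3), with Benjamini-Hochberg adjustment over all genes and calls at adjusted p under 0.05. SEs were the log2 fold change divided by the square root of F. Where nothing says that mice came from separate litters, p-values measure only the spread between these mice. Each member had 211 or more counts in every library, and the counting error of a ratio of 2 members was taken from Poisson counts where it is given.

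The edgeR procedure was tested on simulated counts. The alternatives were other scaling (RLE, total counts), no filter, only the groups compared, DESeq2 1.42.0, covariates (library set, *Ddx3y* level, share of reads in no gene), the replicate block, and sets or mice left out. Lengths, 3′UTRs and positions came from GENCODE M21 (GRCm38). Figures and ratios were made with Python 3.11.15, pandas 2.3.3 and matplotlib 3.10.9. Genes named were the 10 members, *Pkd2*, genes of 7 lists written from general knowledge, and the 5 genes most like *Pdk2* and *Pdk4*. The members and lists were chosen with earlier results of these data known. Protein sequences of the members were not used here. The marker gene *Adgre1* was matched under its older symbol. Values of 1 listed gene are not reported here.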

Additional observations from a re-analysis of the deposited data

How the results depend on the processing

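Each contrast was recomputed under 17 alternatives, of which 2 (without PBS 9, and without PBS 2 and PBS 11) were chosen after seeing the data, as was the test of differences between sets. In the disease contrast, *Pdk1*, *Pdk2*, *Pdp2*, *Pdha1*, *Pdhb*, *Dlat* and *Pdhx* kept their direction and their call under all 17, with *Pdk2* from -1.51 to -0.87 and *Pdha1* from -1.41 to -0.95. *Pdk4* lost its call in set 2 alone (-0.49, adjusted p 0.389) besides the settings given above, and *Pdp1* in set 3 alone (0.19, adjusted p 0.337). In RGLS4326 vs UNT, *Pdk4* was called lower with only the 2 groups in the fit (-0.57, adjusted p 0.0374), in set 3 alone (-0.79, adjusted p 0.0115) and without set 1 (-0.81, adjusted p 0.0229). The cause was not tested.

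In the disease contrast *Pdk3* changed sign with total counts only (0.25), in set 2 alone (0.16) and without set 1 (0.002), and was called lower with the no-gene share as a covariate (-0.27, adjusted p 0.0422); in RGLS4326 vs UNT it changed sign with total counts only (0.22, called higher, adjusted p 0.0103) and in set 2 alone (0.007), and was called lower with that covariate (-0.21, adjusted p 0.0427). In the treatment contrast, where it was not called, *Pdk2* changed sign with the no-gene share as a covariate (0.11), in set 1 alone (0.46), without set 2 (0.11) and without set 3 (0.047), and was called lower in set 2 alone (-0.43, adjusted p 0.0451). *Pdk3* changed sign with that covariate (0.066), in set 1 alone (0.11), without set 2 (0.005) and without set 3 (0.003). In set 2 alone the sign changed for *Pdk4* (-0.43), *Pdhb* (-0.018), *Dlat* (-0.043) and *Pdhx* (-0.024), and without set 2 *Pdk4* was called higher (0.91, adjusted p 0.0327). *Pdha1* was called higher with total counts only (0.19, adjusted p 0.0274).

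The count of genes called in the treatment contrast, 5280, became 89 with the no-gene share as a covariate, 54 in set 1 alone, 0 in set 3 alone (edgeR, where 2826 genes had an unadjusted p under 0.05), 2335 without set 2, 2047 without set 3 and 2836 without PBS 2 and PBS 11. Fewer mice entered all of these but the first. The count of members called in it, 1, became 2 with total counts only and 0 with the replicate block, with that covariate, in sets 1 and 3 alone, without set 3, without PBS 9 and without PBS 2 and PBS 11. *Pdp1* was also not called in set 2 alone (0.16, adjusted p 0.304) or without set 2 (0.26, adjusted p 0.0981), where *Pdk2* and *Pdk4*, respectively, were called in its place. Mice with the same replicate number did not deviate together (33 pairs, r from -0.415 to 0.454, above 0.1 in 10), so the numbers were not taken as pairs, and with the replicate block *Pdp1* was at 0.21 (adjusted p 0.0717) and 5098 genes were called. With the longest transcript in place of all exons the median share of *Pdk1* among the kinases became 11.4% in UNT and 10.3% in RGLS4326 mice, and in UNT mice it passed that of *Pdk3* (9.25%). Without a length correction it became 20.7%, 18.9% and 18.2% in UNT, PBS and RGLS4326 mice, and that of *Pdk3* 6.97%, 13.6% and 11.4%, so that *Pdk3* had the smaller share in every group. The seed matches of the members were the same in the union of all annotated 3′UTRs.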
